A study of Mus musculus with 6 samples.

Results

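The 8 genes described here build and control antigen presentation by major histocompatibility complex (MHC) class II: Cd74, H2-Aa, H2-Ab1, H2-Eb1, H2-DMa, H2-DMb1, H2-DMb2 and Ciita. They were taken by symbol from a table of 47937 genes, and were chosen with earlier results of these data known. All 8 passed the filter for testing, a mean normalized count of at least 10, among 11805 tested genes. The RNA came from haematopoietic stem cells (HSCs), the self-renewing cells from which blood arises, of 8-week-old male wild-type C57BL/6 mice. Marrow was flushed from femora and tibiae, depleted of lineage-positive cells on magnetic beads, and sorted for Kit+ Sca-1+ cells that were CD34-, CD48-, Flt3- and Slam1+. The surface receptor CD93 then divided these cells into a positive fraction (CD93pos, 3 libraries) and a negative fraction (CD93neg, 3 libraries). No transgene, deletion or treatment is named for either fraction. Which mouse or pool of mice a library came from is not stated in the labels, so p-values measure the spread between these libraries.

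MHC class II molecules display peptides from the endosomal pathway to CD4+ T cells. An alpha and a beta chain pair in the endoplasmic reticulum around the invariant chain, the product of Cd74, which blocks the groove and carries the complex to endosomes. There proteases leave a remnant of the invariant chain in the groove, and the DM heterodimer, of H2-DMa with an H2-DMb chain, exchanges it for a peptide. Ciita is the coactivator that switches these genes on: it binds no DNA itself, but docks on factors that sit on a conserved pair of promoter elements, the X and Y boxes. B cells and dendritic cells carry class II constantly, and interferon gamma induces it in many other cells. In the marrow, class II has also been described on stem and progenitor cells.

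One library stood apart from the rest. CD93neg replicate 1 had a read for 4429 genes, against 10752 to 17334 in the other 5, and 71.0% of the tested genes were unread in it, against 2.10% to 26.4%. Reads assigned to genes numbered 5794528 to 9509304 in CD93pos and 2832653 to 4614396 in CD93neg. Of 16 HSC marker genes all 16 were read in the other 5 libraries, and 8 in CD93neg replicate 1. Cd93, the gene of the sorted receptor, stood at 95.3, 173 and 76.9 CPM (reads per 1000000 reads assigned to genes) in CD93pos and at 0, 90.8 and 12.7 CPM in CD93neg, so its transcript in CD93neg replicate 2 lay within the CD93pos range. Results are given with and without CD93neg replicate 1. Where 3 values stand together, they are replicates 1, 2 and 3 in that order.

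The promoters of 4 class II genes are shown first, because Ciita acts through the X and Y boxes. The windows shown differ in their matches to the core letters of these boxes. RefSeq promoters (build GRCm38.p6, 250 bases before to 50 after each start) were found for 5 of the 8 genes, in 6 windows. Cd74, H2-Ab1 and Ciita were not among them. Printed are 135 bases, from position -150 to -16 before the start, 5′ to 3′ on the gene's own strand, with letters matching an X box core (AACNGATGA) or a Y box core (TGATTGG) in capitals. Both strands were searched, and the X box letters were chosen after these promoters had been read.

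H2-Eb1, chr17:34305717-34305851, plus strand: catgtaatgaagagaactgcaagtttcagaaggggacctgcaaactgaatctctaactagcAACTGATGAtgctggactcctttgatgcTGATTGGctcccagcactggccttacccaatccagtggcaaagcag
H2-DMb2, chr17:34145099-34145233, plus strand: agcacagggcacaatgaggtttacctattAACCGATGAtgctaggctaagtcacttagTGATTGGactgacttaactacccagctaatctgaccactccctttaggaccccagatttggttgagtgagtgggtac
H2-Aa, chr17:34287839-34287973, minus strand: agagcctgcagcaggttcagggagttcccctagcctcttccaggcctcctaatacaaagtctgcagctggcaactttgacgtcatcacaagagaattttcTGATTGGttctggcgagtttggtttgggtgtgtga
H2-DMa, chr17:34122682-34122816, plus strand: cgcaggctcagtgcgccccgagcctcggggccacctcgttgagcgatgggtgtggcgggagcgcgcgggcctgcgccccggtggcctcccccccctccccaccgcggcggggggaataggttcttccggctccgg

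In H2-Eb1 the X box core began at position -89 and the Y box core at -61. The H2-DMb2 promoter had them at -121 and -92. H2-DMb1, whose window overlaps annotated untranslated sequence and is not printed, had them at -92 and -63. The X box letters stood in 0.648% of 32851 promoter windows of the same length and the Y box letters in 7.82%. A Y box core 15 to 40 bases after an X box core was found in 4 of the 32851 (0.0122%): BC051142, H2-DMb1, H2-DMb2 and H2-Eb1. H2-Aa matched the Y box letters alone, at -50, and H2-DMa matched neither in either of its windows. Both H2-DMa windows lie within its annotated span (34119541 to 34139101), so they may not hold the promoter that gave its reads. G and C made up 73% of the 300 bases of the H2-DMa window shown and 39% of its other window, and 47.3% to 52% of the windows of H2-Eb1, H2-DMb1, H2-DMb2 and H2-Aa. These matches are descriptions of the letters and say nothing of which factor was bound. A window without a match may still hold an X or Y box with other letters.

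Every one of the 8 genes was highest in CD93neg replicates 2 and 3, low or moderate in all CD93pos libraries, and at 1 read or none in CD93neg replicate 1. The summed class II level was 449, 361 and 476 CPM in CD93pos replicates 1, 2 and 3. The CD93neg libraries stood at 0.353, 4502 and 4639 CPM in the same order. The means were 429 ± 60.3 CPM (SD, n = 3) and 3047 ± 2639 CPM (SD, n = 3), so the CD93neg spread was nearly as large as its mean. CD93neg replicates 2 and 3 together were at 10.7 times the CD93pos mean. In bulk RNA, a change in how many cells carry a transcript and a change in how much each cell carries cannot be told apart.

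**Figure D1:**
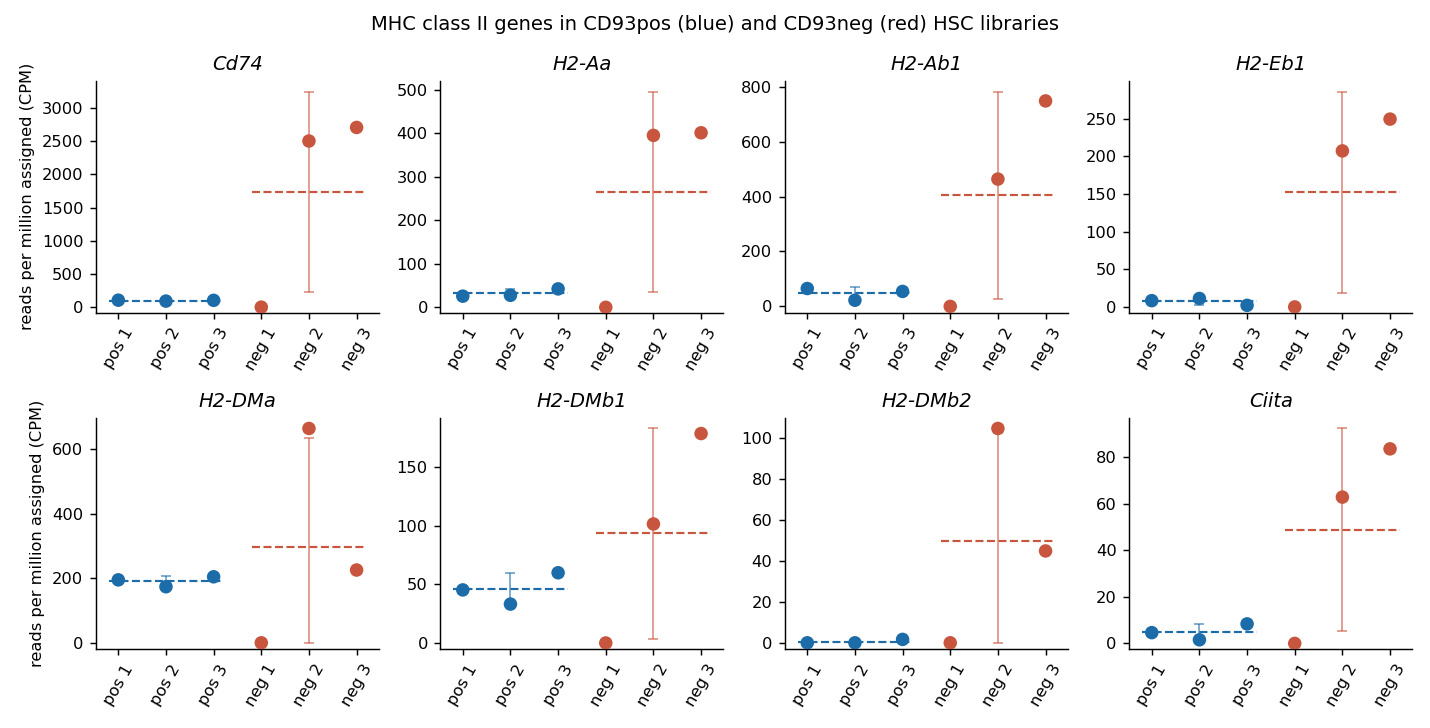
Reads per 1000000 assigned reads (CPM, linear axes) of each class II gene in the 3 CD93pos libraries (blue) and the 3 CD93neg libraries (red). Dashed lines are group means and vertical bars ± 1 SD (n = 3), stopped at 0. In each panel CD93neg replicates 2 and 3 lie above the CD93pos libraries and CD93neg replicate 1 lies at or near 0.

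Across all 6 libraries no class II gene was called different between the fractions. The test was limma on log2(normalized count + 1), two-sided, with Benjamini-Hochberg adjustment over the 11805 tested genes and a threshold of 0.05. It called 0% of the tested genes, and 1436 of them had an unadjusted p under 0.05, none of which was a class II gene. The authors' deposited table, from DESeq2, called 5.97% of 11813 genes with an adjusted p, and none of the 8. No class II gene had groups that did not overlap, whereas every CD93neg library lay above every CD93pos library for 1.92% of tested genes and every CD93pos library above every CD93neg library for 18.3%. All 8 had CD93neg replicates 2 and 3 both above every CD93pos library, which held for 13.8% of tested genes. Of these 8, H2-DMb2 passed the filter for testing only through CD93neg. All 8 also had at most 1 read in CD93neg replicate 1, where 76.6% of tested genes did.

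Without CD93neg replicate 1, Cd74 was called, and it was the only gene so called of 12008 tested (0.00833%). All 8 class II genes then had a negative log2 fold change (CD93pos minus CD93neg), against 39.8% of tested genes. The median of the 8 was -3.97, against 0.44 over all tested genes. H2-DMb2 is counted here, but it passed the filter for testing only through CD93neg, so its direction was tied to its being tested. With all 6 libraries, 6 of the 8, H2-DMb2 among them, were negative, against 20.1% of tested genes, and the medians were -0.41 and 2.36. Unadjusted p-values were under 0.05 for 7 of the 8 without that library, as for 2001 of the 12008 genes. DESeq2 on whole reads of the same 5 libraries, an alternative chosen after seeing the data, called 10.3% of 12948 genes. Among these were 6 of the 8: Cd74, H2-Aa (adjusted p = 3.86e-09), H2-Ab1 (4.74e-05), H2-Eb1 (7.79e-06), Ciita (0.000747) and H2-DMb2 (0.0195), but not H2-DMb1 (0.0996) or H2-DMa (0.325).

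**Figure D2:**
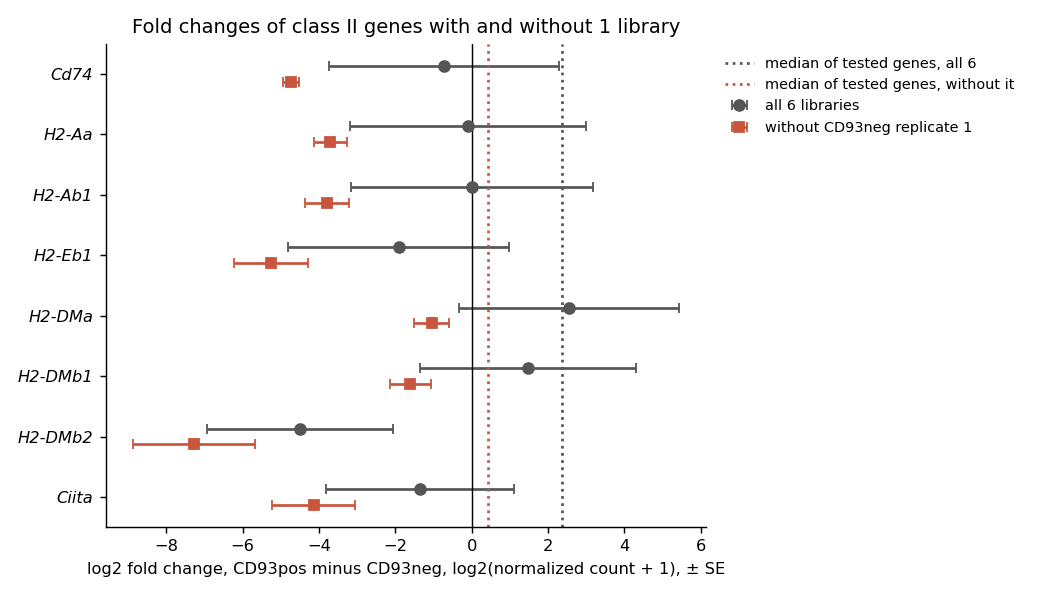
Log2 fold change of each class II gene, CD93pos minus CD93neg, on the log2(normalized count + 1) scale with its standard error, from limma. Grey circles use all 6 libraries, and red squares leave out CD93neg replicate 1. Dotted lines mark the medians over all tested genes, 2.36 and 0.44. Leaving out the library moves all 8 genes to the left of 0 and shortens their error bars.

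Cd74, which encodes the invariant chain, gave the most class II reads in CD93neg. Replicates 1, 2 and 3 held 1000, 529 and 735 Cd74 reads for CD93pos, beside 1, 11546 and 8128 for CD93neg. As CPM, CD93pos lay between 91.3 and 105, CD93neg replicates 2 and 3 at 2502 and 2707, and CD93neg replicate 1 at 0.353. The CD93pos libraries thus lay close together, and the CD93neg libraries lay on both sides of them. On normalized counts limma gave a log2 fold change of -0.72 (SE 3.00, adjusted p = 0.900, n = 3 and 3). Without CD93neg replicate 1 it was -4.74 (SE 0.20, limma adjusted p = 0.00983). On whole reads from the same 5 libraries edgeR gave an adjusted p of 0.0199 for Cd74, its only call of 12008 genes (0.00833%), and DESeq2 gave 3.4e-30. Without CD93neg replicate 2 or 3 instead, the sign turned (1.23 and 1.33).

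The chains that form the peptide groove followed the same order of libraries. H2-Aa and H2-Ab1 encode the alpha and beta chains of I-A, the class II molecule that C57BL/6 mice display. H2-Aa (chr17:34282744-34287823, minus strand, GRCm38) had 244, 160 and 303 reads across CD93pos replicates 1 to 3 and 0, 1824 and 1205 across CD93neg. H2-Ab1 (chr17:34257689-34269419, plus strand) had 619, 130 and 390 reads across CD93pos and 0, 2140 and 2248 across CD93neg. Both genes therefore ran from no read to their highest level within the CD93neg fraction, and their fold changes over all 6 libraries were near 0. H2-Aa was at -0.09 (SE 3.09, limma adjusted p = 0.989), or -3.70 (SE 0.43, adjusted p = 0.0981) without CD93neg replicate 1. H2-Ab1 was at -0.00 (SE 3.17, limma adjusted p = 0.9998), or -3.80 (SE 0.57, adjusted p = 0.107) without it. Its lowest CD93pos value, in replicate 2, was 22.4 CPM, and its highest, in replicate 1, was 65.1 CPM.

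H2-Eb1 (chr17:34305867-34316674, plus strand) encodes the beta chain of I-E, whose alpha chain gene is defective in C57BL/6 mice, so that the pair is not displayed. It had 79, 65 and 15 reads across CD93pos and 0, 956 and 749 across CD93neg. The CD93pos libraries were all low, at 2.10 to 11.2 CPM, beside 207 and 249 CPM in CD93neg replicates 2 and 3. limma gave -1.91 (SE 2.90, adjusted p = 0.730), or -5.25 (SE 0.96, adjusted p = 0.108) without CD93neg replicate 1. The I-E alpha chain is annotated as H2-Ea-ps, and neither it nor the beta chain gene H2-Eb2 had a read in any library. A count of 0 allows up to 3 reads, or 0.315 CPM in the deepest library and 1.06 CPM in the shallowest, for counting error only. H2-Aa, H2-Ab1 and H2-Eb1 summed to 61.3 to 99.1 CPM in CD93pos and to 0, 1066 and 1399 CPM in CD93neg replicates 1, 2 and 3, the last pair at 14.3 times the CD93pos mean.

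Of the DM editor genes, H2-DMa and H2-DMb1 differed less between the libraries than Cd74, and H2-DMb2 more. H2-DMa (chr17:34119541-34139101, plus strand), the alpha chain of DM, had 1857, 1008 and 1465 reads across CD93pos and 0, 3068 and 678 across CD93neg. In CPM the CD93pos libraries lay at 174 to 205, and CD93neg replicate 3, at 226, was only just above them, while replicate 2 was at 665. The fold change was 2.54 (SE 2.88, limma adjusted p = 0.659) over all 6 libraries and -1.05 (SE 0.46, adjusted p = 0.337) without CD93neg replicate 1. Its direction also turned under edgeR (-0.54) and DESeq2 (-0.64) with all 6 libraries. H2-DMa overlaps Brd2 on the opposite strand, and 8.43% of its distinct 50-base words are also in Brd2. Brd2 had 2446 reads in CD93neg replicate 1, where H2-DMa had none.

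H2-DMb1 (chr17:34153072-34160230) and H2-DMb2 (chr17:34143307-34151555), both on the plus strand, encode alternative beta chains of DM. H2-DMb1 had 430, 192 and 428 reads across CD93pos and 0, 468 and 536 across CD93neg. The CPM of CD93neg replicates 2 and 3, 101 and 178, lay above the highest CD93pos value, 59.8. H2-DMb2 behaved differently: it had 0, 0 and 12 reads across CD93pos and 0, 484 and 135 across CD93neg. It was thus unread in 2 of 3 CD93pos libraries in which H2-DMb1 was read. H2-DMb2 passed the filter for testing only through CD93neg (mean normalized count 224, against 2.46 in CD93pos), so its direction was tied to its being tested. H2-DMb2 reads per H2-DMb1 read, each scaled to length, came to 0, 0 and 0.0276 in CD93pos and to 1.02 and 0.248 in CD93neg replicates 2 and 3. The fold change of H2-DMb1 was 1.47 (SE 2.82, limma adjusted p = 0.784), or -1.61 (SE 0.53, adjusted p = 0.218) without CD93neg replicate 1. That of H2-DMb2 was -4.50 (SE 2.43, limma adjusted p = 0.479), or -7.27 (SE 1.60, adjusted p = 0.116) without it. The pair share 369 distinct 50-base words, 22.7% of those of H2-DMb1, so reads could be split between them or lost.

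Ciita (chr16:10480059-10528418, plus strand), the coactivator, had 44, 9 and 60 reads across CD93pos and 0, 290 and 251 across CD93neg. It was 1.55 to 8.39 CPM in CD93pos and 62.8 and 83.6 CPM in CD93neg replicates 2 and 3, 15.1 times the CD93pos mean. The libraries high for Ciita were those high for the genes it switches on. limma gave -1.35 (SE 2.47, adjusted p = 0.773), or -4.14 (SE 1.09, adjusted p = 0.149) without CD93neg replicate 1. Dexi, which overlaps Ciita on the opposite strand, had 47, 0 and 89 reads across CD93pos and 0, 25 and 0 across CD93neg, so the 2 genes did not share an order of libraries.

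The make-up of class II transcripts differed between CD93pos and the CD93neg libraries with reads. H2-DMa gave 43.5%, 48.2% and 43.0% of class II reads in CD93pos replicates 1 to 3, and 14.8% and 4.87% in CD93neg replicates 2 and 3. For CD93pos replicate 2, the shallowest of the 3, the 95% Wilson interval was 46% to 50.3%, so counting error was small beside these differences. Cd74 gave 23.4%, 25.3% and 21.6% in CD93pos, and 55.6% and 58.3% in CD93neg replicates 2 and 3. The invariant chain gene therefore led in the CD93neg pair, and the editor gene in CD93pos. Scaled to the length of the principal transcript, the Cd74 level was 0.633, 0.617 and 0.590 times that of H2-DMa in CD93pos (0.613 ± 0.0219, SD, n = 3), and 4.43 and 14.1 times it in CD93neg replicates 2 and 3. The ratio of the I-A chains, H2-Aa to H2-Ab1 per length, showed no such division: it was 0.424, 1.32 and 0.835 in CD93pos, and 0.916 and 0.576 in CD93neg replicates 2 and 3. No test was run on these ratios, which were chosen after the values were seen.

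**Figure D3:**
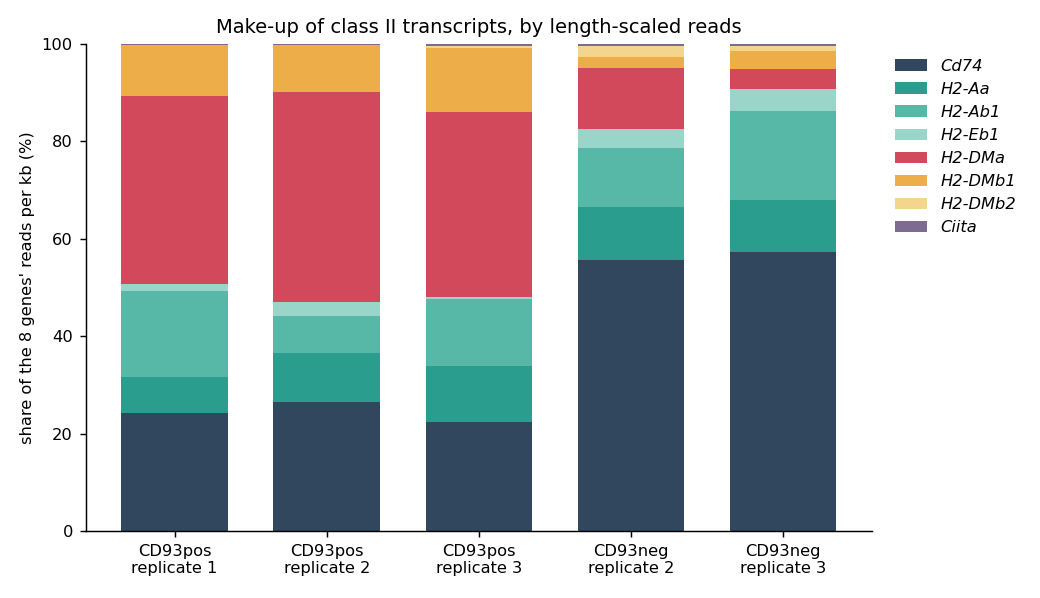
Share of each class II gene in the reads per kilobase of principal transcript summed over the 8 genes (%), for the 5 libraries with more than 1 class II read. H2-DMa (red) is the widest band in the 3 CD93pos libraries and Cd74 (dark blue) in CD93neg replicates 2 and 3.

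By level per kilobase of principal transcript, H2-DMa was highest in CD93pos, at 105 to 124 CPM per kb, followed by Cd74 at 64.7 to 74.6. H2-Ab1, H2-DMb1 and H2-Aa came next, at 18.5 to 53.7, 23.6 to 42.6 and 22.7 to 37.6 CPM per kb, and overlapped one another. H2-Eb1 (1.257 to 6.72), Ciita (0.259 to 1.40) and H2-DMb2 (0 to 1.18) were lowest, and each overlapped its neighbour in that order. In CD93neg replicates 2 and 3 the order by mean was Cd74, H2-Ab1, H2-Aa, H2-DMa, H2-Eb1, H2-DMb1, H2-DMb2 and Ciita, with Cd74 at 1775 and 1920 CPM per kb. With the length of all annotated exons joined in place of the principal transcript, Cd74 ranked above H2-DMa in CD93pos as well, at 54.4 to 62.6 against 50.5 to 59.4 CPM per kb, and the 2 ranges overlapped. The higher rank of H2-DMa thus depended on the transcript length taken.

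H2-Oa and H2-Ob form the DO heterodimer, an inhibitor of DM. H2-Oa did not follow the other class II genes, and H2-Ob followed them in CD93neg replicate 3 but not in replicate 2. H2-Oa had 198, 305 and 15 reads across CD93pos and 0, 6 and 0 across CD93neg. H2-Ob had 475, 142 and 171 reads across CD93pos and 0, 0 and 291 across CD93neg. As CPM it lay at 23.9 to 50.0 in CD93pos and at 0, 0 and 96.9 in CD93neg, so CD93neg replicate 3 was highest. CD93neg replicate 2, which had the most class II reads, thus had 6 reads of H2-Oa and none of H2-Ob. In that library 26.4% of tested genes were unread. H2-Oa and H2-Ob had positive fold changes and neither was called, at 5.02 (limma adjusted p = 0.237) and 4.16 (limma adjusted p = 0.530).

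Genes for the factors on which Ciita docks were also examined. Of 9 tested genes for the RFX and NF-Y complexes, Creb1 and the coactivators, 0 were called, 8 had a positive and 1 a negative fold change, and 0 had CD93neg replicates 2 and 3 above every CD93pos library. These counts are near the shares over all tested genes, of which 20.1% had a negative fold change and 13.8% had both libraries above CD93pos. Without CD93neg replicate 1, 7 were positive and 2 negative. Nfyb, an NF-Y subunit, had 881, 752 and 1165 reads across CD93pos and 0, 0 and 87 across CD93neg. Nfyc, its partner subunit, had 477, 243 and 601 reads across CD93pos and 0, 145 and 242 across CD93neg. Rfxank, a subunit of the X box factor RFX, had 255, 484 and 248 reads across CD93pos and 0, 485 and 90 across CD93neg. Rfx5, the DNA-binding RFX subunit, singled out after its values were seen, had 540, 204 and 115 reads across CD93pos and 0, 0 and 3 across CD93neg. CD93neg replicate 2 thus held 20776 class II reads and no read of Rfx5 or Nfyb. Of all tested genes, 26.4% were unread in that library. Crebbp, a histone acetyltransferase, had a negative fold change (-0.86), with 9016 reads in CD93neg replicate 1 and 340 to 2311 in each other library, and a positive one (0.80) without that library.

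Upstream of Ciita, 10 genes of interferon gamma signalling and lineage control were tested and 0 were called. Fold changes were positive for 6 and negative for 4, or 3 and 7 without CD93neg replicate 1. The negative share over all tested genes was 20.1%, or 39.8% without that library. Ifngr1, the ligand-binding interferon gamma receptor chain, ran at 249 to 440 CPM in CD93pos and at 0, 333 and 511 CPM in CD93neg. Jak1, a kinase of that receptor, ran at 277 to 776 CPM in CD93pos and at 1165, 563 and 490 CPM in CD93neg. Irf2, an interferon regulatory factor, ran at 172 to 332 CPM in CD93pos and at 818, 221 and 328 CPM in CD93neg. Spi1, a transcription factor of myeloid and B lineages, ran at 100.3 to 136 CPM in CD93pos and at 203, 112 and 464 CPM in CD93neg. Jak1, Irf2 and Spi1 were thus well read in CD93neg replicate 1, in which class II genes had 1 read. Of the 10, 3 had CD93neg replicates 2 and 3 above every CD93pos library, as did 13.8% of all tested genes.

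Among endolysosomal genes that process antigen and the invariant chain, 10 were tested and 0 called. They had 5 positive and 5 negative fold changes, or 2 and 8 without CD93neg replicate 1. Of all tested genes, 20.1% had a negative fold change, or 39.8% without that library. CD93neg replicates 2 and 3 lay above every CD93pos library for 6 of the 10, and for 13.8% of all tested genes. Ctsd, an aspartic protease of lysosomes, ran at 179 to 322 CPM in CD93pos and at 0, 415 and 480 CPM in CD93neg. Ctsz, a carboxypeptidase, ran at 154 to 173 CPM in CD93pos and at 9.18, 300.4 and 358 CPM in CD93neg. Cst3, a secreted cysteine protease inhibitor, ran at 140 to 242 CPM in CD93pos and at 609, 372 and 335 CPM in CD93neg, above CD93pos in each library (limma log2 fold change -1.29, adjusted p = 0.442). Ctsb, a cysteine protease, ran at 299.8 to 405 CPM in CD93pos and at 1007, 237 and 742 CPM in CD93neg, so that CD93neg replicate 2 lay below CD93pos.

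Cd74 at the cell surface also binds the cytokine Mif. Of 4 tested genes for its ligands and co-receptors 0 were called and 4 had positive fold changes, or 2 without CD93neg replicate 1. Over all tested genes 20.1% had a negative fold change, or 39.8% without that library, so most were positive there too. Mif had 156 to 177 CPM in CD93pos and 0, 102 and 116 CPM in CD93neg, and Cd44, the signalling partner of Cd74, 155 to 169 CPM in CD93pos and 0.706, 131 and 61.9 CPM in CD93neg. By CPM, Mif and Cd44 lay higher in every CD93pos library than in any CD93neg library, and Cd74 did not. On normalized counts such a division held for 18.3% of all tested genes. Ddt, a homologue of Mif, had 8.28 to 11.6 CPM in CD93pos and 0, 34.7 and 12.3 CPM in CD93neg. Cxcr2, a chemokine receptor of neutrophils, had 546 reads in CD93neg replicate 2 and none in replicates 1 and 3, beside 1 to 41 per CD93pos library.

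Costimulatory genes, which a presenting cell uses beside class II, were sparse. Of 6 tested 0 were called, and 1 had a positive and 5 a negative fold change (20.1% negative over all tested genes). CD93neg replicates 2 and 3 both lay above every CD93pos library for 0 of the 6 (13.8% over all tested genes). Cd80 and Cd40 had no read in CD93pos, Cd83 had 14, 0 and 1, and Icosl 14, 0 and 24. These genes passed the filter for testing only through CD93neg, so their direction was tied to their being tested. Cd86 had 482 reads in CD93neg replicate 3 and none in replicates 1 and 2, beside 7 to 212 per CD93pos library. Cd80 was read in CD93neg replicate 2 alone (195 reads). Icosl, the ligand of the T cell receptor Icos, had 128 reads in CD93neg replicate 3 and none in replicates 1 and 2, beside 0 to 24 per CD93pos library. Cd274, which encodes the inhibitory ligand PD-L1, had 1073 reads in CD93neg replicate 1, 243 and 22 in CD93neg replicates 2 and 3, and 17 to 113 in CD93pos. The 2 CD93neg libraries with class II reads thus differed in which of Cd80 and Cd86 was read.

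Transcripts of other blood lineages were high in the same libraries as the class II genes. The 15 B cell markers summed to 81.3 to 132 CPM in CD93pos and to 0.353, 11246 and 34038 CPM in CD93neg replicates 1, 2 and 3. Ighm, the mu heavy chain, had 10.6 to 29.5 CPM in CD93pos and 0, 4492 and 19276 CPM in CD93neg, and Igkc, the kappa chain, 0 to 24.6 and then 0, 6255 and 14306 CPM. These 2 genes made up most of the sum in CD93neg replicates 2 and 3. The other 13 markers summed to 70.7, 63.2 and 83.5 CPM in CD93pos and to 0.353, 499 and 456 CPM in CD93neg, and so were at similar levels in CD93neg replicates 2 and 3, as class II was (4502 and 4639 CPM). In CD93pos, 3 to 6 of the 15 markers had a read, chiefly Cd79b, a B cell receptor chain (48.8 to 62.8 CPM). Ms4a1, Cd79a and Pax5, singled out as defining B cell genes, had no read in any CD93pos library, while class II genes summed to 2093 to 4273 reads there. Ms4a1 had 0, 468 and 278 reads in CD93neg, Cd79a 0, 361 and 288, and Pax5 0, 18 and 65. The part of B cell transcripts in the CD93neg class II level was not tested.

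Neutrophil markers, a list of 10, summed to 3.11 to 272 CPM in CD93pos and to 0, 12234 and 8452 CPM in CD93neg replicates 1, 2 and 3. They were led by Ngp, Ltf and S100a8, genes of granule and cytosolic proteins of maturing neutrophils. Ngp had 0 to 149 CPM in CD93pos and 0, 4743 and 4223 CPM in CD93neg, S100a8 1.40 to 31.2 and then 0, 2465 and 888 CPM, and Ltf 0 to 44.7 and then 0, 1468 and 1318 CPM. Within CD93pos, replicate 1 held 272 CPM of neutrophil markers and replicate 2 held 3.11, while class II stood at 449 and 361 CPM. The 4 plasma cell markers summed to 297 to 545 CPM in CD93pos and 1339, 1710 and 3559 CPM in CD93neg. Of these Xbp1, a secretory transcription factor that many cells express, was read in all 6 libraries, whereas Jchain had 0, 0 and 8 reads across CD93pos and 0, 5540 and 8001 across CD93neg, and Mzb1 none in CD93pos and 0, 130 and 260 in CD93neg.

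Markers of conventional dendritic cells, which carry class II at high levels, were nearly absent. The list of 9 summed to 0 to 9.04 CPM in CD93pos and 0, 39.4 and 19.3 CPM in CD93neg. Itgax, Xcr1, Batf3, Cd209a and Mgl2, singled out for having no read in any library, stood beside Zbtb46 (0 to 13 reads across CD93pos and 0, 125 and 6 across CD93neg), Clec10a (0 to 66 reads, then 0, 0 and 52) and Clec9a (57 reads in CD93neg replicate 2 alone). The 7 plasmacytoid markers summed to 66.5 to 82.1 CPM in CD93pos and 114, 167 and 262 CPM in CD93neg. Most of this was Bst2, an interferon-induced membrane protein, at 65.5 to 82.1 CPM in CD93pos and 114, 137 and 157 CPM in CD93neg. Ly6d had 0, 136 and 202 reads in CD93neg and none in CD93pos, and Siglech, which marks plasmacytoid cells, 113 reads in CD93neg replicate 3 alone. The 13 monocyte and macrophage markers summed to 45.0 to 133 CPM in CD93pos and 0, 44.2 and 424 CPM in CD93neg, with Ly6c2 (211 CPM) leading in replicate 3. Cd68 had 7.78 to 31.6 CPM in CD93pos and at most 17.1 CPM in CD93neg, and Ccr2 had 9.79 to 28.8 CPM in CD93pos and 0, 0 and 45.0 CPM in CD93neg. CD93neg replicate 2, with 4502 CPM of class II, thus lay just below the lowest CD93pos library in monocyte markers.

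Lists of other cell types moved differently. The 9 T and NK cell markers summed to 218 to 418 CPM in CD93pos and 247, 33.2 and 95.6 CPM in CD93neg, and Nkg7 gave most of it in CD93pos. Klrb1c had at most 52.6 CPM and Trac at most 14.3 CPM in any library. The 7 erythroid markers summed to 124 to 227 CPM in CD93pos and 0, 15.2 and 82.9 CPM in CD93neg, led by Klf1, with 375 to 1166 reads in CD93pos and none in CD93neg, and by Epor. HSC markers summed to 2811 to 3927 CPM in CD93pos and 6224, 5428 and 3881 CPM in CD93neg. Meis1 and Kit, an HSC transcription factor and the stem cell factor receptor, were read in all 6 libraries, at 656 to 2520 and 165 to 1815 CPM. Of the libraries with high class II levels, CD93neg replicate 3 thus lay within the CD93pos range of HSC markers and replicate 2 above it. The parts of these other cell types in the class II levels were not tested.

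**Figure D4:**
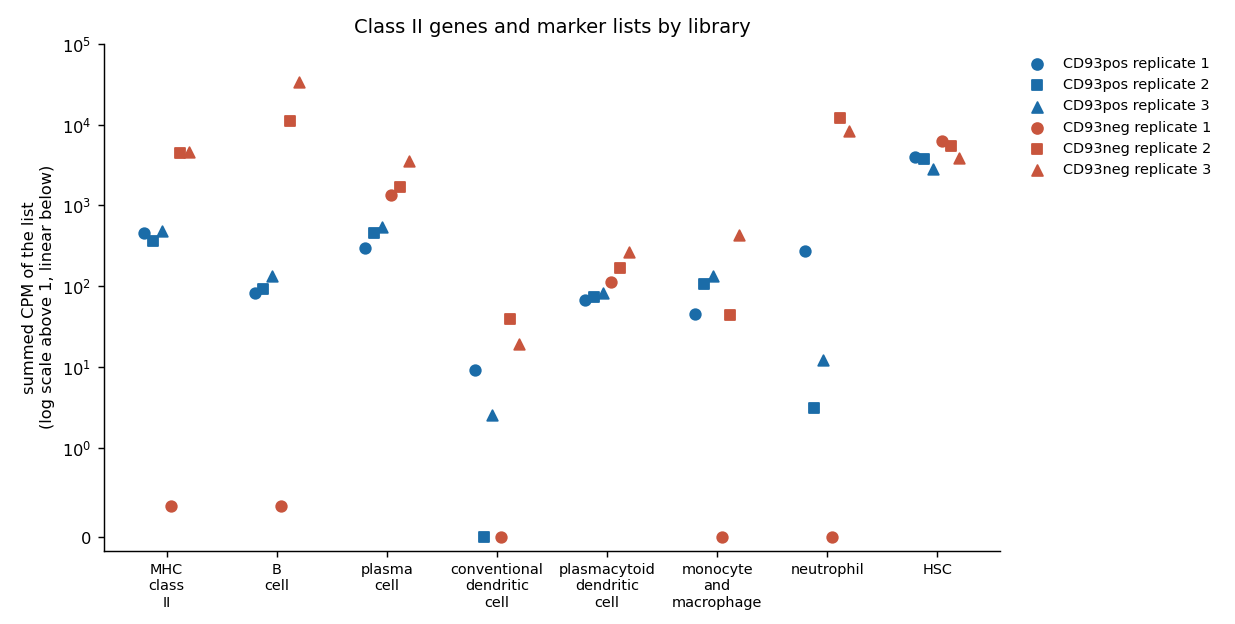
Summed CPM of the 8 class II genes and of marker lists in each library (log scale above 1 CPM, linear below), with CD93pos in blue and CD93neg in red and the marker shape giving the replicate. Class II, B cell and neutrophil sums are highest in CD93neg replicates 2 and 3, and class II and B cell sums are at 0.353 CPM in CD93neg replicate 1. HSC markers lie between 2811 and 6224 CPM in all 6 libraries.

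Over the 6 libraries the class II genes were alike in log2(normalized count + 1), with a Pearson correlation between 0.51 and 0.995 over the 28 pairs, lowest for H2-DMb2 with H2-DMa and highest for Cd74 with H2-Aa. They describe 6 libraries that differ in depth and in the share of unread genes. Outside the set, the genes most alike to the mean of the class II genes included Izumo4 (r = 0.9969), Myl10, Gbp9, Rps15a, Rpl14, Tas1r1 and Kazald1 (r = 0.9902), of 10631 ranked. A correlation of 0.95 or more was reached by 199 of these genes (1.87%). Gbp9, an interferon-inducible GTPase, had 126, 36 and 59 reads across CD93pos and 0, 312 and 253 across CD93neg. Myl10, a myosin light chain, had 130, 81 and 140 reads across CD93pos and 0, 2061 and 1244 across CD93neg. The ribosomal protein genes Rps15a and Rpl14 had 120 and 662 reads in CD93neg replicate 1, so a gene read in all 6 libraries could follow the class II order as closely as one unread there.

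Of the 8 genes, 6 lie within 197 kb of chromosome 17 (34119541 to 34316674), from H2-DMa to H2-Eb1, while Ciita and Cd74 lie on other chromosomes. The span holds 15 annotated genes, of which 5 outside the set were tested: Psmb9, Tap1, Psmb8 and Tap2, which serve MHC class I presentation, and H2-Ob. Without CD93neg replicate 1 their fold changes were -1.64, -0.19, -0.46, -0.54 and 2.69, against -1.05 to -7.27 for the class II genes between them. Psmb9, an immunoproteasome subunit, had 984, 452 and 653 reads across CD93pos and 693, 1277 and 832 across CD93neg. Tap2, a chain of the peptide transporter, had 1539 reads in CD93neg replicate 1. This library therefore held reads from 2 genes of the span while H2-DMa, H2-DMb1, H2-DMb2, H2-Ab1, H2-Aa and H2-Eb1 had none. Psmb9 and Psmb8 had CD93neg replicates 2 and 3 above every CD93pos library on normalized counts, and Tap1, Tap2 and H2-Ob did not.

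**Figure D5:**
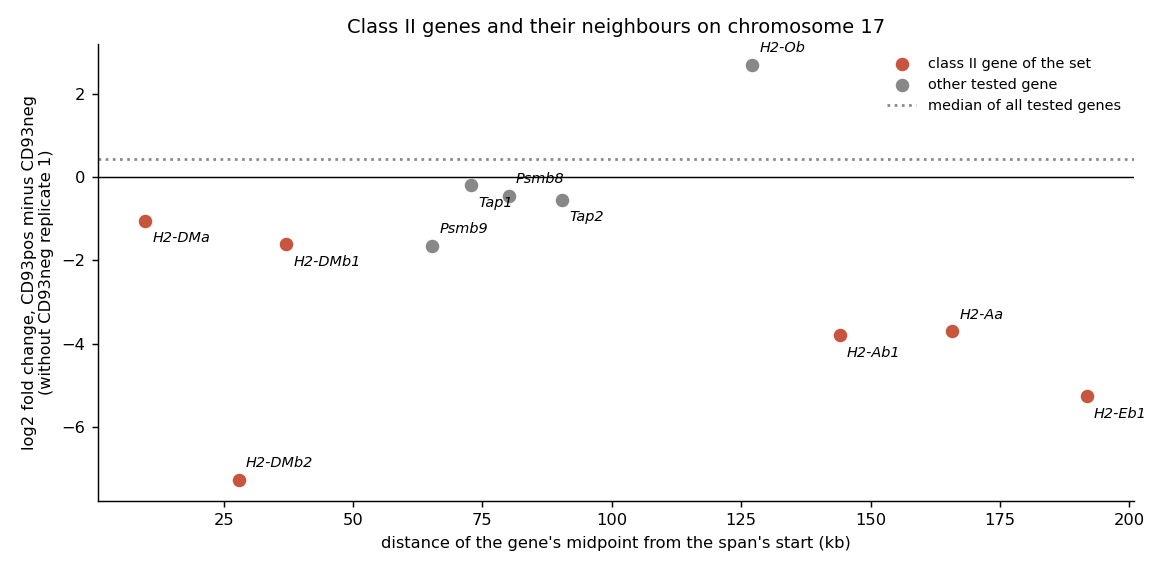
Log2 fold change (CD93pos minus CD93neg, limma without CD93neg replicate 1) of the 11 tested genes of the span against the distance of each gene's midpoint from its start (kb). The 6 class II genes (red) lie between -7.27 and -1.05, the class I genes among them (grey) between -1.64 and -0.19, and H2-Ob at 2.69. The dotted line is the median over all tested genes, 0.44.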

How the data were processed

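Gene expression was measured by RNA sequencing in 6 libraries, with 3 per CD93 fraction, assigned to groups from their titles. The submitters' processing notes name STAR, featureCounts (Subread 1.5.0-p1) and DESeq2 1.26. The strand setting and the annotation used for counting are not stated in the sources used here. Reads within a stretch shared by overlapping genes therefore may have been assigned to either or to neither. The authors deposited a signal table of 47937 genes in which each library's counts are scaled by its own size factor, and a second table with each gene's mean signal, log2 fold change, standard error, Wald score, p-value and adjusted p-value. Whole reads were recovered from the deposited signal for 100% of values above 0, within a tolerance of 0.001, and 0 columns were left unmapped.

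Tests used limma 3.58.1 (lmFit, eBayes with trend) in R 4.3.3 on log2(normalized count + 1), for genes whose normalized counts averaged 10 or more. This scale understates changes of low genes and gives large differences where a library is at 0. edgeR 4.0.16 and DESeq2 1.42.0 on recovered reads, other pseudocounts, filters and scalings, a replicate block and each library left out were alternatives. CPM are recovered reads per 1000000 assigned reads. Wilson intervals and the floor of 3 reads cover counting error only, since reads of amplified libraries are not independent molecules. Symbols came from the authors' deposited table, and positions from GENCODE M21 (GRCm38), which held 47224 of the IDs. Lengths were those of the APPRIS principal transcript. Other steps ran in Python 3.11.15 with pandas 2.3.3, numpy 2.4.6 and, for plots, matplotlib 3.10.9. The scripts were tested on simulated data.

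Named genes were the 8 class II genes, the other class II chains and editors, up to 4 genes of each pathway list and 3 of each marker list with the highest mean, and the 8 genes most alike over the libraries. In that last ranking genes with no symbol, predicted genes, pseudogenes and immune receptor segments were left out. The genes and lists were chosen with earlier results of these data known. March1, March8 and H2-Ea were listed and not found under these symbols. Some genes that the rule names are not reported here.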

Additional observations from a re-analysis of the deposited data

How the results depend on the processing

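The counts of genes called depended on the processing: limma called 0 genes with 6 libraries, 206 with a pseudocount of 0.5, 351 with TMM scaling and 24 with the replicate number as a block, and DESeq2 called 705. Leaving out 1 library gave 0 to 1873 calls by limma: 707 without CD93pos replicate 2, 1 without CD93neg replicate 1 and 1873 without CD93neg replicate 3. Without CD93neg replicate 1 edgeR called 1 gene and DESeq2 1339, alternatives chosen after seeing the data. Of 136 class II fold changes over 17 alternatives, 112 kept their direction and 24 turned, and 8 passed the threshold, each without CD93neg replicate 1. Those 8 were Cd74 under limma, edgeR and DESeq2, and H2-Aa, H2-Ab1, H2-Eb1, H2-DMb2 and Ciita under DESeq2. H2-Eb1 was lower in CD93pos under all 17, as was H2-DMb2, which passed the filter through CD93neg alone. H2-Aa turned to 0.24 with a pseudocount of 0.5 and 0.12 with TMM, and H2-Ab1 to 0.33 and 0.22. H2-DMb1 turned to -1.09 with quantile normalization, which moved the median of all tested genes from 2.36 to 0.02. On reads, H2-DMa turned to -0.54 (edgeR) and -0.64 (DESeq2), and H2-DMb1 to -0.98 and -1.07. Without CD93neg replicate 1 they were -1.12 and -1.56 by edgeR, and -1.19 and -1.63 by DESeq2. Leaving out each library in turn, limma gave -4.74 (without CD93neg replicate 1) to 1.33 (without CD93neg replicate 3; 1.23 without replicate 2) for Cd74. The range was -3.70 to 1.74 for H2-Aa, with 0.06 without CD93pos replicate 1 and 1.68 without CD93neg replicate 2. It was -3.80 to 2.09 for H2-Ab1, with 0.44 without CD93pos replicate 2 and 1.70 without CD93neg replicate 2, and -4.14 to 0.17 for Ciita. For H2-DMa it was -1.05 to 4.71 and for H2-DMb1 -1.61 to 3.24. In these 6 ranges the lowest value was that without CD93neg replicate 1. The cause was not tested. Under the alternatives run on it, the mean class II level in CD93pos ranged from 382 CPM (without H2-DMb1 and H2-DMb2) to 463 CPM (without replicate 2). In CD93neg it moved more, from 2251 CPM (without replicate 3) to 4570 CPM (without replicate 1).

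Whether libraries with the same replicate number were paired is not stated in the labels. Their deviations from the group means correlated at 0.037, 0.019 and 0.061, against -0.047 to 0.0099 for libraries with different numbers. These small correlations do not settle whether the libraries were paired. Each library correlated best with its own number. With the replicate block 24 genes were called, 15 of them higher in CD93pos, and no class II gene. Low class II counts in the CD93pos libraries, such as 9 reads of Ciita in replicate 2, limit precision there.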
